A study of Mus musculus with 26 samples.

Results

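The hypoxia and glycolysis genes described here were 35 genes of glucose and lactate transport, glycolysis, pyruvate dehydrogenase control, oxygen sensing and the hypoxia response, of which 31 were measured among 17097 genes on 26 mouse arrays. Each gene was read by the brightest of its probe sets that carry a single gene symbol, taken as the highest mean over all 26 arrays, and values are log2 intensities. Gpi1, Pgam1, Eno1 and P4ha1 had no such probe set and were not analysed here. The genes were listed by function, not by a threshold on these values.

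Glycolysis splits glucose into pyruvate in the cytosol, and lactate dehydrogenase turns pyruvate into lactate when it does not enter mitochondria. Under low oxygen the prolyl hydroxylases encoded by Egln genes no longer mark HIF-1alpha for destruction, and the stabilised factor pairs with its partner on short DNA motifs beside genes of glucose uptake, glycolysis, acid export and blood vessel growth. HIF activity is thus mostly set at the protein level, and many HIF targets serve as readouts of oxygen supply. MYC proteins bind the E-box motif and are also known to act on glycolytic genes, and medulloblastomas are described as glycolytic tumors.

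All samples were C57BL/6 mouse material lacking Trp53 and Cdkn2c. On 3 arrays were Trp53 Cdkn2c neurospheres, cultures from postnatal day 7 that grow as floating balls of cells and whose cell type is labelled granule neural progenitors. The other 23 arrays are labelled with Myc in addition. They held Group3 neurospheres labelled as medulloblastoma cells (3 dka and 4 mmm arrays), untreated Group3 tumors (3 dka and 2 mmm), secondary Group3 tumors (3 dka), and Group3 tumors given pemetrexed (2 mmm), gemcitabine (3 mmm) or both drugs (3 mmm). The letters dka and mmm open the array titles, and groups were compared only within them. How Myc was introduced, whether cultures were single clones, and the dose, time and animals behind each array are not given in the sources used here. Replicate numbers below follow the order of deposit and pair nothing.

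Several facts of the whole series touch the results. Array medians lay between 4.65 and 4.82, and the dka arrays ran from 2.56 to 13.9. The mmm arrays other than Group3 neurosphere replicate 4 ran from -0.41 to 16.1. The mean of the dka Group3 neurospheres and the mean of mmm Group3 neurosphere replicates 1 to 3 differed with an SD of 0.132 over all probe sets. Single pairs of arrays within groups differed with an SD of 0.292 to 0.910. How the values came to lie so close is not given in the sources used here, so the mmm neurosphere means are not counted as a second, separate measurement of the neurospheres. Myc lay between 6.93 and 9.48 on all 26 arrays with no step between the genotypes, and whether its probe set reads the introduced Myc is not given in the sources used here. Mycn lay between 4.46 and 4.82 in Trp53 Cdkn2c neurospheres and between 12.4 and 15.3 on every array labelled with Myc; this gene was looked up after values were seen. Cdkn2c lay between 3.28 and 4.80 throughout.

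Group3 neurospheres were first compared with Trp53 Cdkn2c neurospheres, both dka with 3 arrays each. The 2 groups differ both in the Myc label and in the labelled cell type, whose parts cannot be told apart here. Of 31 members 10 were higher and 1 was lower in Group3 neurospheres at a limma adjusted p under 0.05. Of all genes 22.6% passed, 13.4% higher and 9.22% lower. The members' median log2 difference was 0.69, against 0.08 for all genes. The glycolytic enzymes Hk1, Pfkl, Aldoa, Tpi1, Pgk1, Pkm and Ldha, the kinase Pdk1, the carbonic anhydrase Car12 and the vessel growth factor Vegfa rose, Hk2 fell, and 0 of 4 glucose and lactate transporters passed the test.

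Pdk1 showed the largest difference of all members. Its product phosphorylates and switches off pyruvate dehydrogenase, which keeps pyruvate out of the citric acid cycle. Pdk1 read 4.02, 4.83 and 4.94 in the 3 Trp53 Cdkn2c neurospheres and 9.42, 7.56 and 9.34 in the Group3 neurospheres. All 3 Group3 arrays were higher by a wide margin, even the low replicate 2, and the difference was 4.18 (SE 0.37, adjusted p = 1.62e-07). The other 2 Pdk1 probe sets gave 4.06 and 3.30. Pdk1 was near the array median in Trp53 Cdkn2c neurospheres, so the low side of this difference is near the floor of the array. Its relatives Pdk2, with 0.36 (SE 0.19, adjusted p = 0.197), and Pdk3, with -0.10 (SE 0.68, adjusted p = 0.949), did not pass.

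Hexokinases, which trap glucose in the cell as its phosphate, moved in opposite directions. Hk1, the form present in most tissues, read 8.0, 7.64 and 7.35 in Trp53 Cdkn2c neurospheres and 9.36, 8.52 and 8.99 in Group3 neurospheres, a difference of 1.3 (SE 0.34, adjusted p = 0.0079). Hk2, the inducible form that many tumors express, read 10.36, 10.24 and 10.66 against 9.67, 8.89 and 8.61, a difference of -1.36 (SE 0.33, adjusted p = 0.00453). The arrays of the 2 groups did not overlap for either gene, and Hk2 was the 1 member that fell. Of all genes 24.8% lay wholly above and 16.3% wholly below in this comparison.

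Phosphofructokinase commits sugar to glycolysis, and its 3 genes were read separately. Pfkl, the liver-type subunit, read 5.33, 5.66 and 5.42 in Trp53 Cdkn2c neurospheres and 8.70, 7.35 and 8.17 in Group3 neurospheres, a rise of 2.60 (SE 0.52, adjusted p = 0.00106). Pfkm, the muscle-type subunit, was above the Trp53 Cdkn2c arrays on all 3 Group3 arrays but did not pass, at 0.86 (SE 0.35, adjusted p = 0.081). In this comparison 24.8% of all genes lay wholly above. Pfkp, the platelet-type subunit, overlapped at -0.43 (SE 0.54, adjusted p = 0.653). Pfkfb3 and Pfkfb4, which make the activator fructose 2,6-bisphosphate, gave 0.69 (SE 0.40, adjusted p = 0.25) and -0.54 (SE 0.43, adjusted p = 0.434), and neither passed.

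The next enzymes of the pathway rose together in this comparison. Aldoa, which splits the 6-carbon sugar, went from 10.55, 10.54 and 9.90 to 12.45, 11.47 and 12.50, a rise of 1.81 (SE 0.35, adjusted p = 0.000838). Tpi1, which interconverts the resulting trioses, went from 10.13, 9.88 and 9.38 to 11.91, 10.29 and 11.92, a rise of 1.58 (SE 0.31, adjusted p = 0.000933). Pgk1, the first step of the pathway that makes ATP, went from 10.41, 10.33 and 10.45 to 12.46, 11.62 and 12.53, a rise of 1.81 (SE 0.25, adjusted p = 2.86e-05). Group3 replicate 2 was the lowest of its group for each of these 3 genes, and it still lay above every Trp53 Cdkn2c array. Of all genes 24.8% also lay wholly above. Ldha, which makes lactate, read 11.56, 11.04 and 11.32 against 12.87, 12.04 and 12.72, a rise of 1.23 (SE 0.23, adjusted p = 0.00046). Pkm, the pyruvate kinase of most cells, rose by 0.73 (SE 0.23, adjusted p = 0.0248). That call was lost without Trp53 Cdkn2c replicate 1 or 2 or without Group3 replicate 1 or 3, with adjusted p between 0.0827 and 0.114 and a smallest difference of 0.59.

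Gapdh, the enzyme between Tpi1 and Pgk1, did not pass with them. It read 12.79, 12.84 and 12.87 against 13.20, 12.74 and 13.15, and the difference was 0.20 (95% interval -0.09 to 0.49). The 2 groups overlapped. Ldhb, the lactate dehydrogenase subunit that favours lactate use, gave 0.42 (SE 0.37, adjusted p = 0.498) and did not pass. The count by role was therefore 4 higher and 1 lower of 9 upper glycolysis genes, and 3 higher of 5 genes of lower glycolysis and lactate. Of all genes 13.4% were higher and 9.22% lower.

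**Figure D1:**
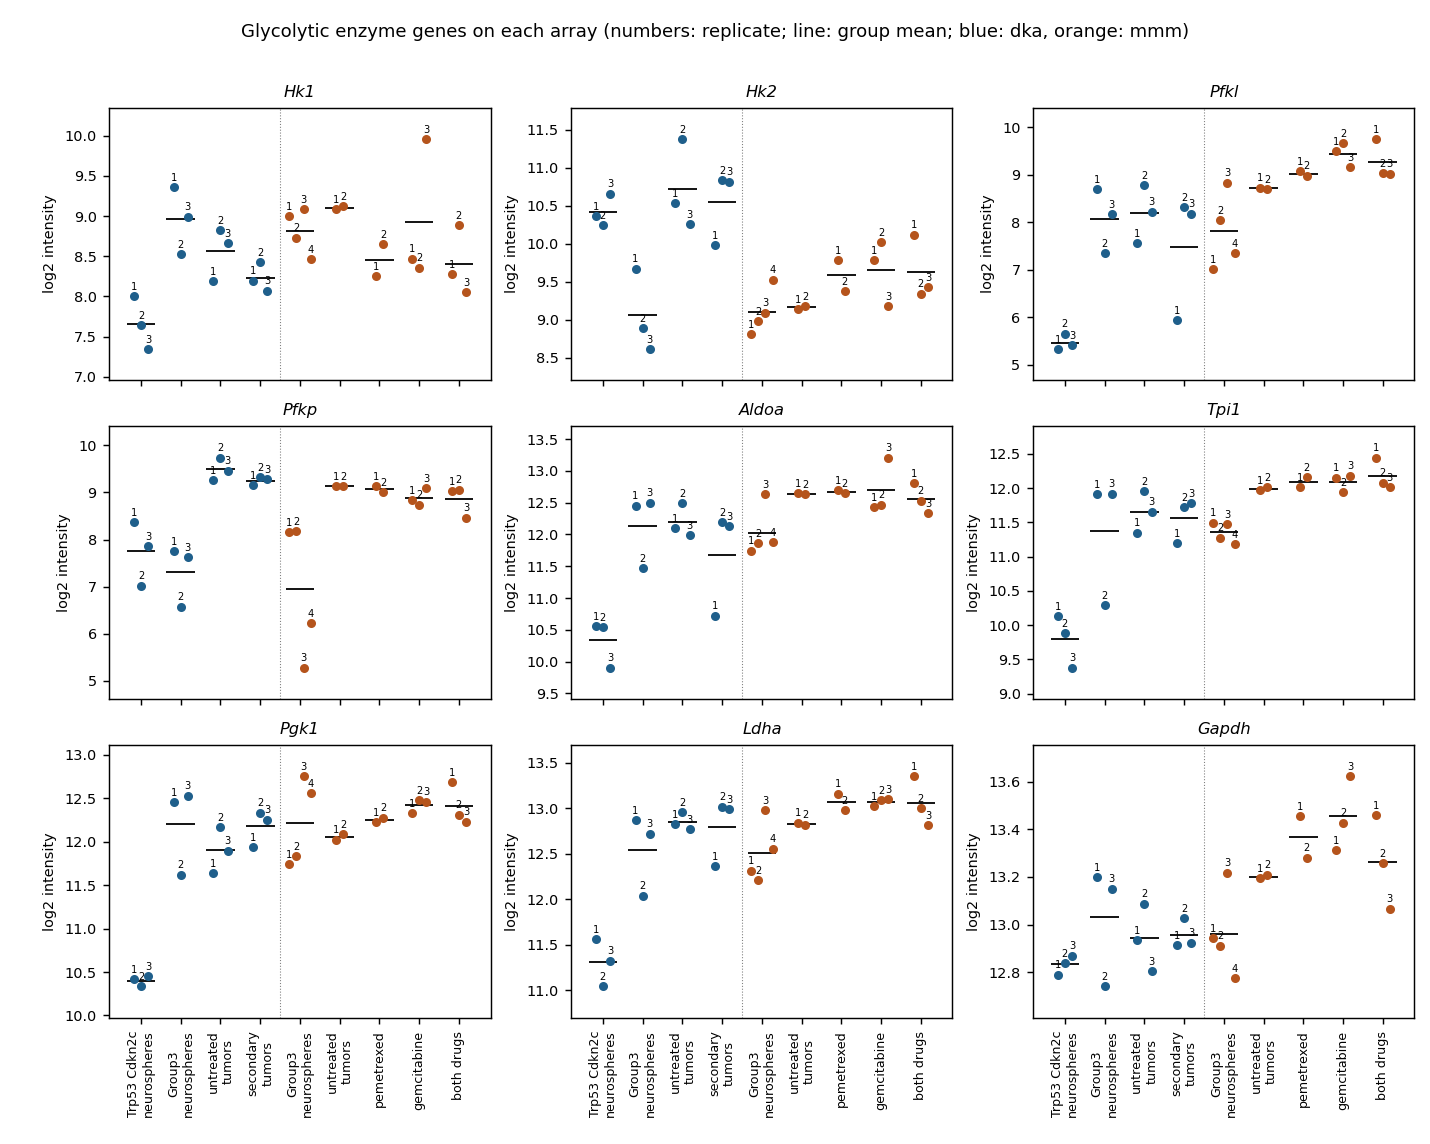
Log2 intensity of 9 glycolytic enzyme genes on each of the 26 arrays, with the replicate number at each point and the group mean as a line. Pfkl, Aldoa, Tpi1, Pgk1 and Ldha were low on all 3 Trp53 Cdkn2c arrays. Hk2 was lower in dka Group3 neurospheres than in the other dka groups, and its mmm neurospheres overlapped the untreated mmm tumors. The 3 dka Group3 neurospheres were spread, with replicate 2 the lowest for all of these genes but Hk2.

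Of the 4 carriers among the members, Slc2a1, Slc2a3, Slc16a1 and Slc16a3, 0 were called by limma, and 1, Slc16a1, had an unadjusted p under 0.05. Slc2a1, the GLUT1 glucose transporter, read 7.70, 7.69 and 8.40 in Trp53 Cdkn2c neurospheres and 9.18, 6.09 and 8.29 in Group3 neurospheres. The Group3 arrays lay on both sides of the Trp53 Cdkn2c arrays, and the difference was -0.08 (95% interval -1.27 to 1.11). Slc2a3, the neuronal GLUT3 transporter, gave -0.58 (SE 0.86, adjusted p = 0.71). The monocarboxylate transporter Slc16a1 gave 0.47 (SE 0.22, adjusted p = 0.138) with arrays that did not overlap, where 24.8% of all genes lay wholly above. Slc16a3, the lactate exporter MCT4, stayed below the array medians in both groups at 3.54 ± 0.31 (SD, n = 3) and 3.54 ± 0.24 (SD, n = 3), so this comparison gave no reading of it.

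Among the other hypoxia genes 2 of 7 passed the test, where 22.6% of all genes passed, so the count is near the background. Car12, a carbonic anhydrase of the cell surface that handles acid, read 3.43, 3.5 and 3.51 in Trp53 Cdkn2c neurospheres, below the array medians, and 6.53, 6.05 and 7.08 in Group3 neurospheres. The difference was 3.07 (SE 0.43, adjusted p = 3.7e-05). Vegfa, which draws in blood vessels, read 5.96, 6.91 and 6.73 against 9.93, 7.52 and 9.19, a rise of 2.35 (SE 0.73, adjusted p = 0.0235). The Vegfa call was lost without Trp53 Cdkn2c replicate 1, at 2.06 (adjusted p = 0.096), or without Group3 replicate 1, at 1.82 (adjusted p = 0.122), or 3, at 2.19 (adjusted p = 0.0773). It was also lost when only the dka arrays were fitted, with an adjusted p of 0.0675.

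For 4 further hypoxia genes 2 of the 3 Group3 arrays were high and replicate 2 was not. Egln3, a prolyl hydroxylase that is itself a HIF target, read 4.01, 3.96 and 4.21 in Trp53 Cdkn2c neurospheres and 7.98, 4.73 and 7.38 in Group3 neurospheres. Bnip3, a mitophagy receptor, read 8.24, 8.72 and 6.94 against 11.18, 8.34 and 10.51. Replicates 1 and 3 lay above all Trp53 Cdkn2c arrays for both genes, while replicate 2 was near or within their range. Ankrd37, an ankyrin-repeat gene induced by hypoxia, read 4.82, 5.46 and 4.91 against 7.54, 4.44 and 6.87. Car9, a surface carbonic anhydrase widely used as a hypoxia marker, read 3.90, 3.91 and 4.13 against 6.65, 4.41 and 6.19.

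With all arrays the differences were 2.64 (SE 1.06, adjusted p = 0.0817) for Egln3, 2.04 (SE 0.74, adjusted p = 0.0531) for Bnip3, 1.77 (SE 0.73, adjusted p = 0.0905) for Car9 and 1.22 (SE 0.75, adjusted p = 0.279) for Ankrd37, none of which passed. The other 2 targets gave 0.23 (SE 0.78, adjusted p = 0.887) for Ndrg1, a stress-induced gene, and 0.17 (SE 0.32, adjusted p = 0.771) for Bnip3l, a mitophagy receptor related to Bnip3. Without Group3 neurosphere replicate 2 all 4 passed, with 15 members called in place of 11. Egln3 was then 3.62 (adjusted p = 0.0267), Bnip3 2.88 (adjusted p = 0.00887), Car9 2.44 (adjusted p = 0.03) and Ankrd37 2.14 (adjusted p = 0.0404). Bnip3 also passed without Trp53 Cdkn2c replicate 2, at 2.42 (adjusted p = 0.0492). Each of the 6 arrays was left out in turn, and replicate 2 is singled out here after its low values were seen, so these 4 calls are a description.

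Replicate 2 of the dka Group3 neurospheres was the lowest of its group in 24 of 31 members, or 77.4%, against 35.1% of all genes. It was the lowest in 7 of 7 measured hypoxia targets outside glycolysis. Replicate 1 was the highest of the group in 20 of 31 members. The members' median SD within the group was 0.55, against 0.21 for all genes, and 28 of 31 members exceeded the all-gene median. In the mmm Group3 neurospheres the median SD was 0.51 against 0.27, yet no array stood low throughout, as replicates 1 to 4 were the lowest in 9, 7, 6 and 9 members. The members' median SD was below that of all genes in untreated mmm tumors (0.05 against 0.09) and with pemetrexed (0.12 against 0.14). It was above in the other groups. All genes also include dim ones, while most members lay above the array median on all arrays. Oxygen, density and age of the cultures are not given in the sources used here.

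**Figure D2:**
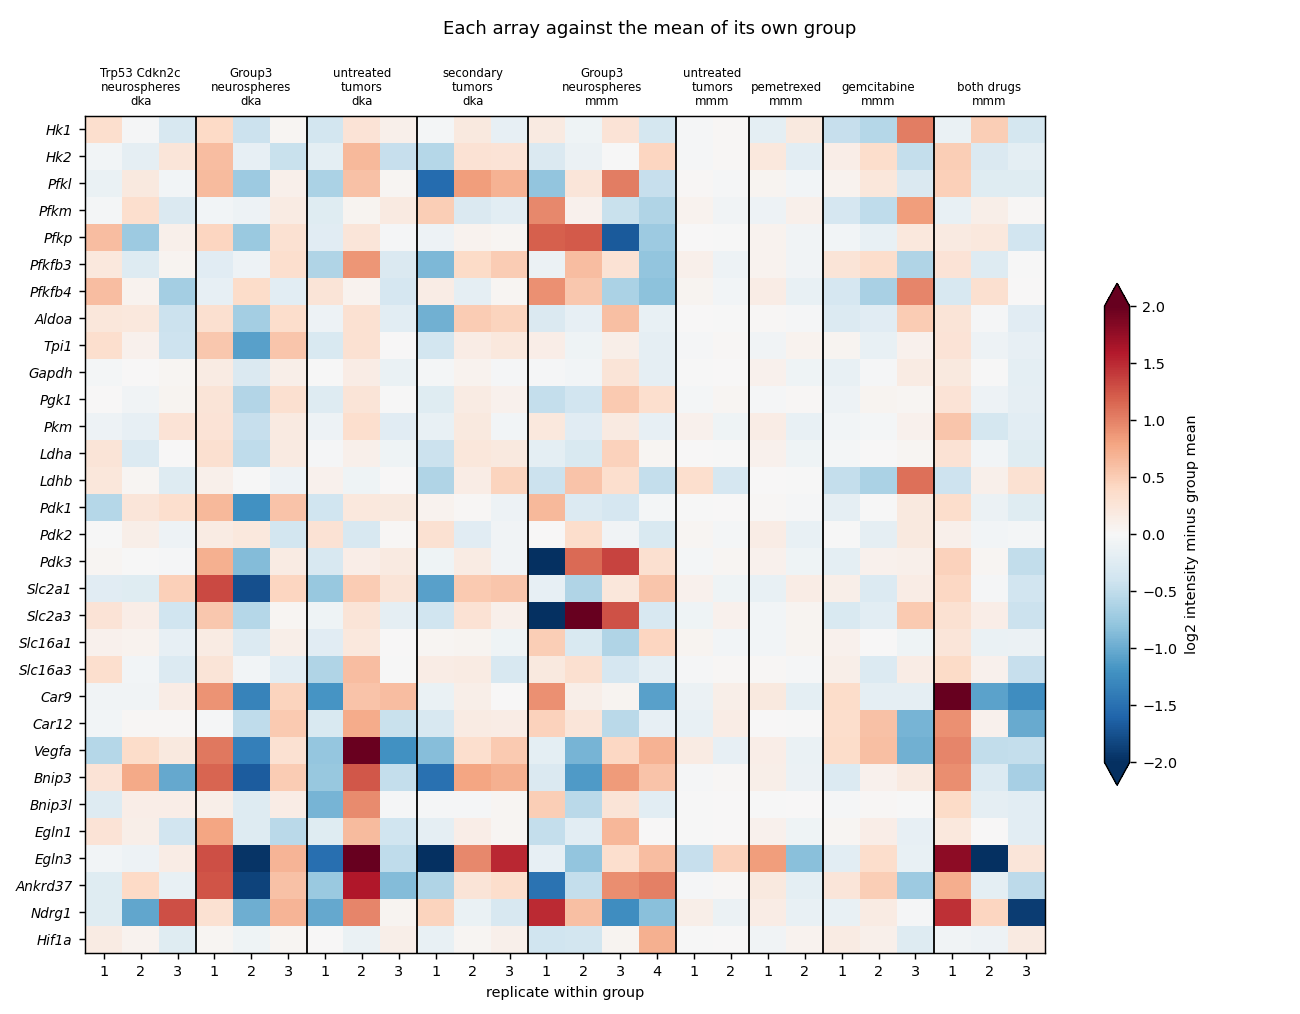
Log2 intensity of the 31 members on each array minus the mean of its own group, in blue for below and red for above the mean, on a colour scale that ends at 2 on either side. Columns are replicates within the 9 groups. The dka Group3 neurosphere replicate 2 is blue down most of the column, lowest in 24 of 31 members, and the replicate 1 of tumors given both drugs is red in most, highest in 25 of 31.

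Of 3 oxygen sensing genes, Hif1a, Egln1 and Egln3, 0 passed by limma in this comparison, and 1, Egln3, had an unadjusted p under 0.05. Hif1a, which encodes the HIF-1alpha subunit, read 10.33, 10.22 and 9.92 in Trp53 Cdkn2c neurospheres and 10.22, 10.09 and 10.22 in Group3 neurospheres, a difference of 0.02 (95% interval -0.42 to 0.45). Egln1, the main oxygen sensor among the prolyl hydroxylases, gave 0.13 (SE 0.31, adjusted p = 0.832). A second, dimmer Egln1 probe set gave 1.08 with an adjusted p of 0.0278 over all probe sets, so the 2 readings of this gene disagreed. Among 11 other HIF subunits and regulators 0 were called as well.

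**Figure D3:**
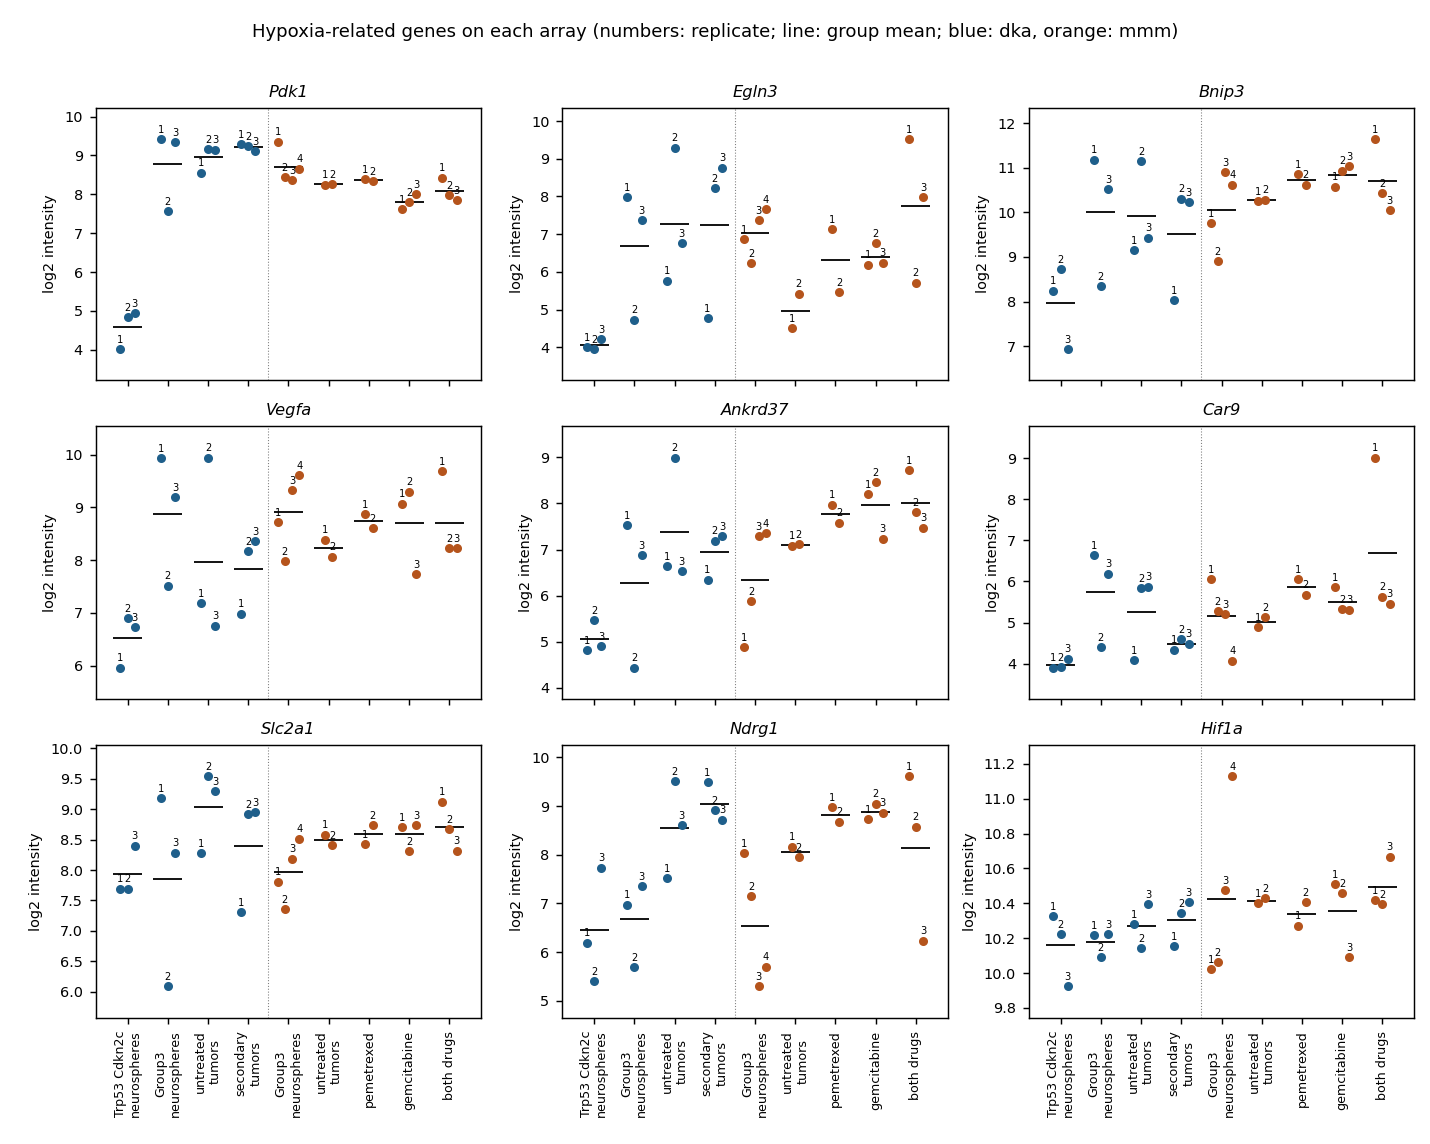
Log2 intensity of 9 hypoxia-related genes on each of the 26 arrays, with the replicate number at each point and the group mean as a line. Egln3, Bnip3, Vegfa, Ankrd37, Car9 and Slc2a1 share the low dka Group3 neurosphere replicate 2, as does Pdk1, whose replicate 2 still lies above all 3 Trp53 Cdkn2c arrays, and Hif1a spans a narrow range from 9.92 to 11.1.

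HIF is known to bind a short core motif, and the 300 bases around each gene's start were searched for it. RefSeq windows on GRCm38.p6, from 250 bases before the start to 50 after, existed for 28 of the 31 measured members, and 40 windows in all. Slc2a3, Ndrg1 and Bnip3l had no entry. Windows of 6 members are shown because the results above turn on them: Pdk1, Pgk1 and Ldha, which rose, Egln3 and Bnip3, which varied with replicate 2, and Slc2a1, which did not pass. All are printed 5′ to 3′ on the gene's strand in lower case, and capitals mark ACGTG, the hypoxia response core, or its variant GCGTG, read on either strand (CACGT and CACGC are their reverse complements).
Pdk1 (chr2:71872974-71873273, + strand): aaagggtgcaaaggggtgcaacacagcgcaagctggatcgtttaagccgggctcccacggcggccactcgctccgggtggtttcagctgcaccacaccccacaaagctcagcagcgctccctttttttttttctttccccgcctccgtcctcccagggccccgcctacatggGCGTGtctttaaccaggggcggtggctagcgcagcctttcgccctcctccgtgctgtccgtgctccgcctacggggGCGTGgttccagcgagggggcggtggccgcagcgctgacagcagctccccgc
Egln3 (chr12:54203825-54204124, - strand): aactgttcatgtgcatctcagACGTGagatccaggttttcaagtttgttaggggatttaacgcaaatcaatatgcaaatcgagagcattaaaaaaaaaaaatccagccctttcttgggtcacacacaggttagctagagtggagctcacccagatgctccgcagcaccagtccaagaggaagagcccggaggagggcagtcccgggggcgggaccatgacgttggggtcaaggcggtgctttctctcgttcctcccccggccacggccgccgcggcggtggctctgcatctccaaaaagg
Bnip3 (chr7:138909457-138909756, - strand): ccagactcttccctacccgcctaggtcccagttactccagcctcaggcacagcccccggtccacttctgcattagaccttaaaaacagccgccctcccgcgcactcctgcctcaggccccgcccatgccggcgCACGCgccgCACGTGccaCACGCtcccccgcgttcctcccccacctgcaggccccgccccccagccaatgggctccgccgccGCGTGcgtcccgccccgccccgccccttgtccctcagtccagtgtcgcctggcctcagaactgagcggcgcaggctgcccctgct
Pgk1 (chrX:106186850-106187149, + strand): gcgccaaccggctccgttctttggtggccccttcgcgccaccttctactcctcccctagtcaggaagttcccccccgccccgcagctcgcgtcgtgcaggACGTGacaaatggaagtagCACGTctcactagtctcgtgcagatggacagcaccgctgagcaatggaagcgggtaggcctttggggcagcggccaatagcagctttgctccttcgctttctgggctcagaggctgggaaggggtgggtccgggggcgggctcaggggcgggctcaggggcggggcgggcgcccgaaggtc
Ldha (chr7:46845554-46845853, + strand): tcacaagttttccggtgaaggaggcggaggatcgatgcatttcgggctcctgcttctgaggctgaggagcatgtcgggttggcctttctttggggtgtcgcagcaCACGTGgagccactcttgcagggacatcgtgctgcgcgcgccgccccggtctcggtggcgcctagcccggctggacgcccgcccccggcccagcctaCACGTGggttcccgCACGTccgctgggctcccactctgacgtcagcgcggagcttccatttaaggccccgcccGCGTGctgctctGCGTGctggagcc
Slc2a1 (chr4:119108495-119108794, + strand): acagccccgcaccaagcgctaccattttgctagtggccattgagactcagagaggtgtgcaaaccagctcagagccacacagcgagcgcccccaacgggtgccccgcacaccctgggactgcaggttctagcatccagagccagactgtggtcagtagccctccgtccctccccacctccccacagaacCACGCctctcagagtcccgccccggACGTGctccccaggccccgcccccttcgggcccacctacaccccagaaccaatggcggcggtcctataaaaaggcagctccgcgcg

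The ACGTG core stood in a window of 21 of the 28 members (75%), against 21.8% of all 27025 genes in the table. Counting windows, it stood in 24 of 40 member windows and in 19.6% of all 32851. GCGTG stood in 19 of the 40 and in 32.4% of all windows. The E-box CACGTG, which holds ACGTG on both strands and so counts as 2 matches of it, stood in 7 of the 40 (17.5%) and in 7.15% of all windows. Ldha had 2 E-boxes in the printed window and Bnip3 had 1. Both cores contain CG, and the member windows held a median of 20 CG dinucleotides against 7 over all windows, so the shares are not matched for base composition. The printed Pdk1 window held 2 matches of GCGTG and 0 of ACGTG, the Pgk1 window 2 of ACGTG, and the Slc2a1 window 1 of each. At least 1 core stood in a window of 26 of the 28 members (92.9%), all but Tpi1 and Car12, against 46.7% of all genes. A match describes letters and is no evidence of binding.

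Genes of the same pathways outside the 31 members were read from lists. Of 34 other hypoxia response genes, 11 were higher and 2 lower in Group3 neurospheres, with a median of 0.53. Ppp1r3c, a glycogen-targeting subunit, rose by 3.96 (SE 0.67, adjusted p = 0.00024), and Bhlhe40, a hypoxia-induced repressor, by 3.05 (SE 0.61, adjusted p = 0.00108). Of 15 other glycolysis genes, 2 were higher, of which Aldoc, the brain aldolase, differed by 7.28 (SE 1.08, adjusted p = 6.03e-05). Of 15 citric acid cycle genes 8 were higher and 0 lower, with Suclg2 at 2.14 and Sdha at 1.3. Among 10 genes of pyruvate entry into mitochondria, Pdha1, a subunit of the complex that Pdk1 inhibits, rose by 1.16 and the activating phosphatase Pdp1 fell by 2.17.

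Markers of other cells moved with this comparison. In Group3 neurospheres 9 of 10 granule progenitor markers were lower, with a mean over the list of 5.81 to 6.16 against 9.62 to 10.1 in Trp53 Cdkn2c neurospheres. Of 14 microglia and macrophage markers 10 were lower, with list means of 3.88 to 4.0 against 6.06 to 6.53. Of 10 neuron markers 5 and of 3 red blood cell markers 2 were lower. Neuron list means were 4.45 to 5.24 against 8.34 to 8.83. Endothelial list means were 4.19 to 4.29 against 4.81 to 5.27, with Cldn5 at -2.71. Pericyte and matrix list means were 4.07 to 4.39 against 4.68 to 5.11, with Rgs5 at -3.30. Of 11 astrocyte markers 3 were higher and 1 lower, with Acsbg1 at 4.68, and of 9 oligodendrocyte lineage markers 2 were higher, Olig1 at 4.77 and Olig2 at 3.69. The Trp53 Cdkn2c cultures, labelled granule neural progenitors, thus held the progenitor markers at a high level. Their neuron, microglia, red blood cell, endothelial and pericyte list means also lay above those of Group3 neurospheres. In bulk RNA fewer cells of a type and less RNA per cell cannot be told apart, and the part of these markers in the members' changes was not tested.

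Untreated tumors were compared with Group3 neurospheres of the same code. Under dka 4 of 31 members were higher and 1 lower, against 8.81% and 9.74% of all genes (18.6% in either direction), a share near the background. The median was 0.18. Under mmm 3 were higher and 1 lower, against 10.6% and 11.5% (22.1% in either direction), with a median of 0.24, again near the background. The core enzymes that differed between Group3 and Trp53 Cdkn2c neurospheres gave small values here. In dka, Aldoa differed by 0.05, Tpi1 by 0.28, Pgk1 by -0.30, Ldha by 0.31 and Pdk1 by 0.18, and none of these 5 passed.

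Pfkp was the member that rose under both codes. The neurosphere means of the 2 codes are not separate measurements, as given above, so the 2 rises are not independent of each other. It read 7.76, 6.57 and 7.63 in dka Group3 neurospheres and 9.27, 9.74 and 9.46 in dka tumors, a rise of 2.17 (SE 0.54, adjusted p = 0.00836). In mmm it read 8.15, 8.18, 5.28 and 6.23 in neurospheres and 9.13 and 9.13 in tumors, a rise of 2.18 (SE 0.58, adjusted p = 0.0101). All tumors lay above all neurospheres within each code, as did 17.3% of all genes under dka and 19.6% under mmm. The mmm neurospheres formed a high and a low pair. The dimmer second probe set of Pfkp rose too, by 1.88 and 2.53. The dka call was lost without Group3 neurosphere replicate 2, at 1.80 (adjusted p = 0.0519), and the mmm call without tumor replicate 1 or 2, at 2.17 (adjusted p = 0.0811) and 2.18 (adjusted p = 0.0802).

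Pfkfb3, whose product pushes phosphofructokinase, read 7.55, 8.28, 7.96 and 6.88 in mmm neurospheres and 10.07 and 9.88 in mmm tumors, a rise of 2.31 (SE 0.43, adjusted p = 0.000763). The dka arrays also did not overlap, at 7.87, 8.0 and 8.43 and 8.56, 10.05 and 8.88. Of all genes 17.3% lay wholly above in dka and 19.6% in mmm. The dka difference of 1.06 (SE 0.40, adjusted p = 0.0739) did not pass. It passed without dka tumor replicate 1, at 1.36 (adjusted p = 0.0446). The difference between the codes in this gene was 1.24 (SE 0.59, adjusted p = 0.189) and did not pass either.

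Hk2 was higher in dka tumors than in dka Group3 neurospheres. It read 10.53, 11.38 and 10.26 there, against the 9.67, 8.89 and 8.61 of dka Group3 neurospheres, a rise of 1.66 (SE 0.33, adjusted p = 0.00128), and these tumors lay within or above the range of the Trp53 Cdkn2c neurospheres. In mmm tumors it read 9.14 and 9.18, within the 8.81, 8.98, 9.09 and 9.52 of the mmm neurospheres, a difference of 0.06 (SE 0.35, adjusted p = 0.935). Slc16a3 read 4.99, 6.21 and 5.59 in dka tumors, against 3.80, 3.49 and 3.32 in the dka neurospheres, a rise of 2.06 (SE 0.27, adjusted p = 3.53e-05). These neurospheres were below the array medians, so the size of the rise is uncertain. In mmm tumors it read 3.92 and 3.97, just above the neurospheres and below the array medians, a difference of 0.42 (SE 0.29, adjusted p = 0.339). Car12 rose in dka by 1.82 (SE 0.43, adjusted p = 0.00594) and gave -0.46 (SE 0.46, adjusted p = 0.534) in mmm.

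These differences between the codes were tested as such, as mmm minus dka. The neurosphere means of the 2 codes are not separate measurements. In dka and mmm they were 9.06 and 9.10 for Hk2, 3.54 and 3.53 for Slc16a3 and 9.77 and 9.95 for Slc16a1. Ldhb gave 10.85 and 10.71, and Car12 lay further apart at 6.56 and 7.61. For all of these but Car12 the test thus compares mostly the tumors of the 2 codes. Hk2 gave -1.61 (SE 0.48, adjusted p = 0.0407), Slc16a3 -1.64 (SE 0.39, adjusted p = 0.0163), Car12 -2.27 (SE 0.63, adjusted p = 0.0317), Slc16a1 -1.41 (SE 0.32, adjusted p = 0.0127) and Ldhb 1.78 (SE 0.55, adjusted p = 0.0467). For Slc16a3 the neurospheres of both codes and the mmm tumors were below the array medians, so the size of its difference is uncertain. These 5 were the members called, 1 higher and 4 lower, against a background of 4.36% and 4.8% of all genes (9.17% in either direction). Without mmm tumor replicate 1 or 2 none of the 5 passed, with adjusted p from 0.0510 to 0.221 (0 members called by limma). Leaving out a dka tumor, a dka neurosphere or mmm neurosphere replicate 4 left 2 to 5 called. In the same test 8 of 14 microglia and macrophage and 2 of 3 red blood cell markers were higher under mmm. Astrocyte and oligodendrocyte lineage markers also lay apart between the codes, with their counts under each code given below. For tumors minus neurospheres, Gjb6 and Acsbg1 gave 4.24 and -0.21 under mmm, against -0.18 and -3.91 under dka. Mbp and Olig1 gave 7.16 and 0.76 under mmm, against 4.01 and -5.46 under dka. The part of all these markers was not tested. What separates the tumors of the 2 codes beyond the letters in the titles is not given in the sources used here.

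The other calls were single ones. Slc2a3 rose in mmm, from 5.58, 11.46, 10.26 and 8.68 in neurospheres to 11.54 and 11.69 in tumors, by 2.62 (SE 0.91, adjusted p = 0.0457). Neurosphere replicate 2 came closest to the tumors and replicate 1 was far below, and the call was lost without tumor replicate 1, at 2.70 (adjusted p = 0.181), tumor replicate 2, at 2.54 (adjusted p = 0.211), or neurosphere replicate 4, at 2.51 (adjusted p = 0.0864). Slc16a1 fell in mmm, with a difference of -0.79 (SE 0.23, adjusted p = 0.0186), which was lost without either tumor, with adjusted p of 0.0891 and 0.149, or without neurosphere replicate 4, at 0.0547. Averaging its probe sets ended the call as well, at -0.45.

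Bnip3l, also called Nix, fell in dka tumors, with a difference of -1.06 (SE 0.32, adjusted p = 0.0251), from 11.29, 10.92 and 11.33 to 9.19, 11.06 and 10.10. The groups overlapped, since tumor replicate 2 lay within the range of the neurospheres. Without tumor replicate 1 the difference was -0.60 (adjusted p = 0.179), and the call was also lost without tumor replicate 3, at 0.0578, or neurosphere replicate 1 or 3, at 0.0722 and 0.0831. Slc2a1 did not pass in dka, at 1.18 (SE 0.57, adjusted p = 0.17), but did so without neurosphere replicate 1, at 1.85 (adjusted p = 0.0295). Egln1 in mmm was 0.93 (SE 0.33, adjusted p = 0.0515) and passed without neurosphere replicate 3, at 1.15 (adjusted p = 0.0153).

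Pdk1 in mmm depended on the probe set. Its brightest probe set gave -0.45 (SE 0.39, adjusted p = 0.467), and the other 2 gave -1.44 and -1.73, with adjusted p of 0.0462 and 0.0132 over all probe sets. Under dka the 3 probe sets gave 0.18, 0.70 and 0.70, none past 0.05.

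The hypoxia targets outside glycolysis varied between single tumors. In dka tumors Egln3 read 5.76, 9.29 and 6.76, Vegfa 7.19, 9.94 and 6.76, Bnip3 9.15, 11.15 and 9.44 and Ankrd37 6.64, 8.99 and 6.53. Tumor replicate 2 was the highest for each of these 4, and it was the highest of its group in 24 of 31 members, against 34.6% of all genes. In the 2 mmm tumors Egln3 read 4.51 and 5.42, below all 4 mmm neurospheres at 6.86, 6.24, 7.37 and 7.65, a difference of -2.06 (SE 1.12, adjusted p = 0.209) that did not pass. There 23.8% of all genes lay wholly below. Of 34 other hypoxia response genes 5 were higher and 4 lower in dka tumors, and 3 higher and 3 lower in mmm tumors. Angptl4, a secreted lipase inhibitor, rose in dka by 4.0 (SE 0.51, adjusted p = 2.87e-05). Plod1, a collagen hydroxylase, fell in both codes, by 3.04 and by 2.19, against neurosphere means that are not separate measurements.

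Markers of other cell types moved with the tumors. In dka tumors 13 of 14 endothelial, 10 of 14 microglia and macrophage, 8 of 9 pericyte and matrix, 2 of 3 red blood cell and 7 of 10 neuron markers were higher than in neurospheres. In mmm tumors the counts were 10 of 14, 14 of 14, 4 of 9, 3 of 3 and 8 of 10. Of 11 astrocyte markers 0 were higher and 3 lower in dka tumors, and 4 higher and 1 lower in mmm tumors. Of 9 oligodendrocyte lineage markers 2 were higher and 2 lower in dka tumors, with Mbp at 4.01 and Olig1 at -5.46, and 5 were higher in mmm tumors, with Mbp at 7.16. The dka tumor replicate 2, high in most members, had the lowest endothelial list mean of its group, 5.29, and replicate 3 the highest, 6.61. Replicate 1, the lowest of the group in 17 of 31 members, lay between them, and the mean of the group was 5.79. The oligodendrocyte list mean ran from 4.60 on that replicate 2 to 8.93 on replicate 3. Microglia and macrophage means ran from 6.22 to 6.71 in dka tumors and from 7.94 to 8.07 in mmm tumors. The part of these cells in the members' values was not tested.

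**Figure D4:**
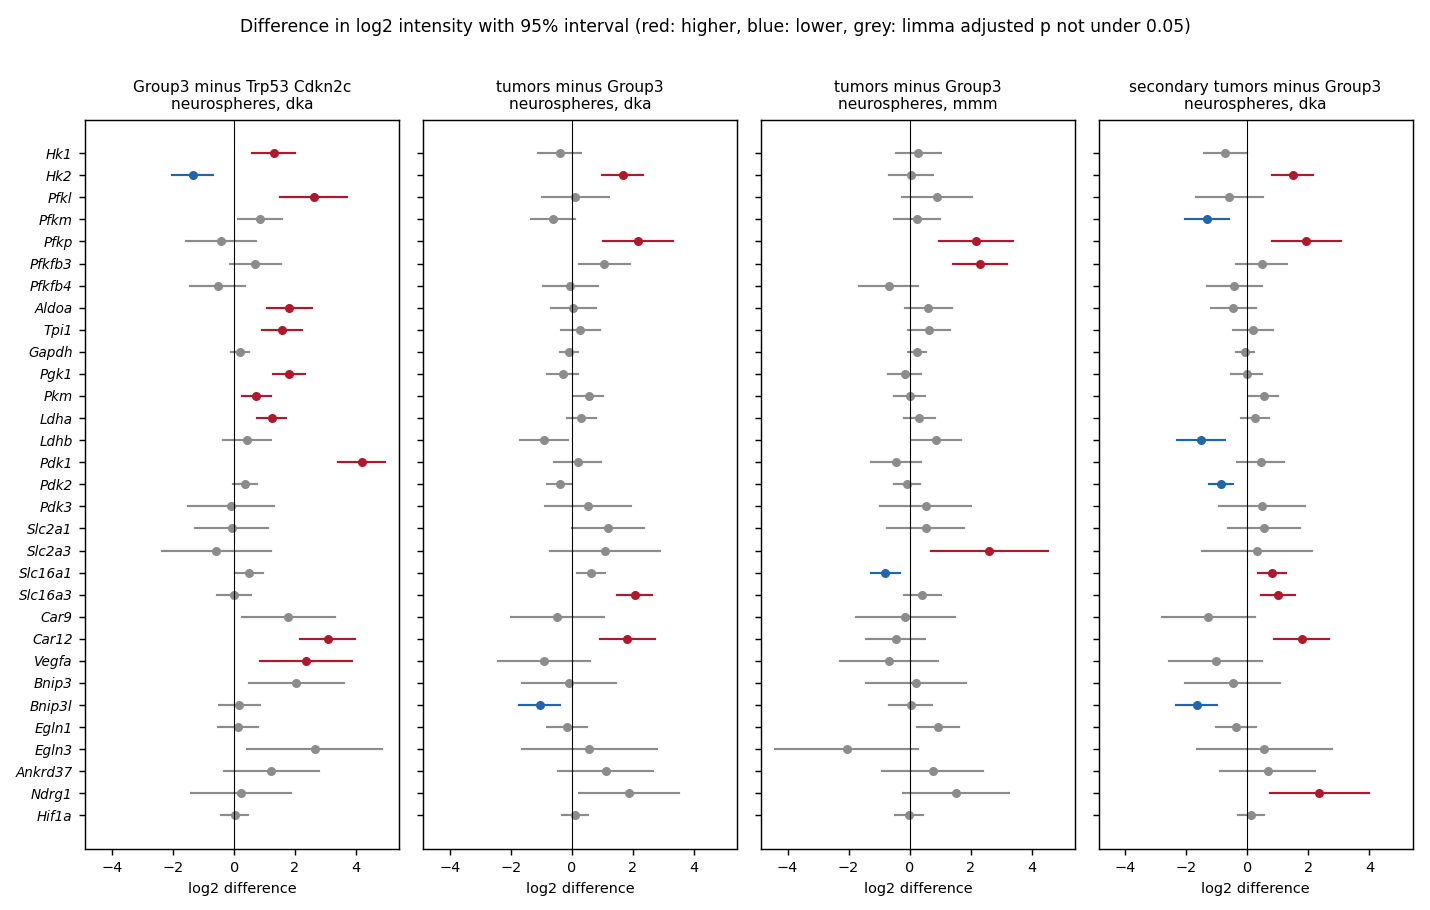
Difference in log2 intensity of the 31 members with its 95% interval in 4 comparisons, red for higher and blue for lower at a limma adjusted p under 0.05 and grey for the rest. In the first panel 10 members are red and Hk2 is blue. In the other panels Aldoa, Tpi1, Pgk1 and Ldha are grey and Pfkp is red in all 3. The 3 dka panels share the 3 dka Group3 neurospheres, and the mmm neurosphere means are not a separate measurement from theirs.

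Set directly against Trp53 Cdkn2c neurospheres, dka tumors had 14 of 31 members higher and 0 lower, against 9.15% and 6.45% of all genes (15.6% in either direction). The median was 1.29, and 0.08 over all genes. At an unadjusted p under 0.05, 17 were higher and 1 lower, the latter Bnip3l, and 28.4% of all genes passed that line. This comparison shares its arrays with the dka comparisons above, so it is not separate support for them. In these tumors 8 of 10 granule progenitor markers were lower, with list means of 6.40 to 6.93 against 9.62 to 10.1. Endothelial markers were higher in 6 of 14 and pericyte and matrix markers in 4 of 9, while 2 of 11 astrocyte markers and 1 of 3 red blood cell markers were lower. The part of these markers was not tested.

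Of the enzymes, Pfkl was higher by 2.72 (SE 0.52, adjusted p = 0.00126), Tpi1 by 1.86 (SE 0.31, adjusted p = 0.000376), Aldoa by 1.86 (SE 0.35, adjusted p = 0.00114), Ldha by 1.54 (SE 0.23, adjusted p = 0.000102), Pgk1 by 1.5 (SE 0.25, adjusted p = 0.000341) and Pkm by 1.28 (SE 0.23, adjusted p = 0.000642). Pdk1 differed by 4.36 (SE 0.37, adjusted p = 1.89e-07) and Car12 by 4.89 (SE 0.43, adjusted p = 3.08e-07). Car12 read 8.07, 9.11 and 7.93 in tumors. In Trp53 Cdkn2c neurospheres Car12 was below and Pdk1 near the array medians, and no detection calls were used, so the sizes of both differences are uncertain. Pfkfb3, Slc16a1 and Slc16a3 were also higher, by 1.75, 1.09 and 2.06, the last from neurospheres below the array medians. Hk2 did not pass, at 0.30 (SE 0.33, adjusted p = 0.599). Slc16a1 lost its call when its probe sets were averaged, at 0.55.

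The calls of 3 members here depended on single arrays. Egln3 was higher by 3.21 (SE 1.06, adjusted p = 0.0453), Ankrd37 by 2.32 (SE 0.75, adjusted p = 0.0396) and Pfkp by 1.74 (SE 0.54, adjusted p = 0.0345). Egln3 was below the array medians in Trp53 Cdkn2c neurospheres, so the size of its difference is uncertain. Averaging the probe sets of Egln3 gave 2.44 with an adjusted p of 0.0647. Without tumor replicate 2 Egln3 was 2.20 (adjusted p = 0.212) and Ankrd37 1.52 (adjusted p = 0.205). Egln3 was lost also without tumor replicate 3, at 0.0669, and both were lost without Trp53 Cdkn2c replicate 1, 2 or 3, with adjusted p from 0.0667 to 0.112. Pfkp was lost without any of the 3 tumors or without Trp53 Cdkn2c replicate 2 or 3, at 0.0616 to 0.160. Ndrg1 passed without Trp53 Cdkn2c replicate 3, at 2.74 (adjusted p = 0.0361), and Bnip3l without tumor replicate 2, at -1.36 (adjusted p = 0.00273).

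Secondary tumors were compared with untreated tumors of dka, 3 arrays each. No member passed in either direction by limma (0 of 31, against 0.538% of all genes, 0.263% higher and 0.275% lower). At an unadjusted p under 0.05, 2 members were lower and 0 higher, and 12.7% of all genes passed that line. The median difference was -0.24. Slc16a3, the lactate exporter, read 4.69, 4.71 and 4.22 in secondary tumors and 4.99, 6.21 and 5.59 in untreated tumors. The groups did not overlap, and 10.5% of all genes also lay wholly below. The Slc16a3 difference was -1.06 (SE 0.27, adjusted p = 0.078), which passed without untreated tumor replicate 1, at -1.36 (adjusted p = 0.0165). Pdk2 was the other, at -0.46.

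For hypoxia targets the interval was wide. Egln3 read 4.77, 8.22 and 8.76 in secondary tumors, a difference of -0.02 (95% interval -2.24 to 2.19). Bnip3 read 8.03, 10.31 and 10.23, and the difference was -0.39 (95% interval -1.94 to 1.16). Secondary tumor replicate 1 was the lowest of its group for both, and in 23 of 31 members, against 42.8% of all genes. Ndrg1 went against this and was highest on replicate 1, at 9.48, 8.91 and 8.72.

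Against dka Group3 neurospheres the secondary tumors had 6 members higher and 4 lower, with a background of 10.2% and 14.5% (24.6% in either direction). Hk2 rose by 1.48 (SE 0.33, adjusted p = 0.00223), Pfkp by 1.93 (SE 0.54, adjusted p = 0.0126), Car12 by 1.78 (SE 0.43, adjusted p = 0.0047) and Slc16a3, from neurospheres below the array medians, by 1.0 (SE 0.27, adjusted p = 0.00975). Slc16a1 rose by 0.79 (SE 0.22, adjusted p = 0.0114) and Ndrg1 by 2.36 (SE 0.78, adjusted p = 0.0315). Lower members were Bnip3l at -1.67 (SE 0.32, adjusted p = 0.000716), Ldhb at -1.51 (SE 0.37, adjusted p = 0.00538), Pfkm at -1.32 (SE 0.35, adjusted p = 0.00786) and Pdk2, a dim probe set above the array median on 6 of 26 arrays, at -0.86 (SE 0.19, adjusted p = 0.00242). Ldhb read 8.74, 9.5 and 9.79 in secondary tumors against 10.96, 10.85 and 10.76 in neurospheres, with no overlap. Of all genes 21.5% lay wholly below in this comparison. Without neurosphere replicate 2 the calls of Pfkp, at 1.56 (adjusted p = 0.0742), and Slc16a1, at 0.65 (adjusted p = 0.065), were lost. Ndrg1 was lost without neurosphere replicate 1 or 2 or secondary tumor replicate 1 or 2, at adjusted p of 0.0527 to 0.144. Of the other hypoxia response genes 3 were higher and 8 lower of 34, with Plod1 at -4.54 and Ppp1r3c at -4.35. Microglia and macrophage markers were higher in 13 of 14 and endothelial markers in 12 of 14. Astrocyte markers were lower in 5 of 11 and oligodendrocyte lineage markers in 2 of 9. Their part was not tested.

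Drug-treated tumors were compared with the 2 untreated mmm tumors, which all 3 comparisons share. Pemetrexed is an antifolate that starves cells of nucleotides, and gemcitabine is a cytidine analogue that is built into DNA and stops its copying. By limma 0 of 31 members passed with pemetrexed (2 arrays), gemcitabine (3 arrays) or both (3 arrays). The background was 0% of all genes for each single drug and 0.076% for the pair (0.0526% higher and 0.0234% lower). At an unadjusted p under 0.05 the counts were 0, 2 and 2 members, against 4.72%, 8.61% and 7.90% of all genes. The members' median differences were 0.20, 0.22 and 0.14.

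Slc16a3 and Pkm were the 2 members under that unadjusted line with gemcitabine. Slc16a3 read 5.09, 4.69 and 5.12 with gemcitabine and 3.92 and 3.97 without drug, a difference of 1.02 (SE 0.30, adjusted p = 0.415). Pkm read 11.86, 11.87 and 12 against 11.28 and 11.12, a difference of 0.71 (SE 0.25, adjusted p = 0.448). Treated arrays lay above untreated ones for both genes, and neither passed over all genes. With gemcitabine 20.4% of all genes lay wholly above the 2 untreated tumors. With pemetrexed Slc16a3 read 4.62 and 4.58 and with both drugs 4.89, 4.58 and 4.04, again above the 2 untreated tumors. The same held for 30.3% of all genes with pemetrexed and 22.2% with both drugs. Slc16a3 was below the array medians on the untreated and the pemetrexed arrays, so the sizes of its differences are uncertain.

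With both drugs the 2 members were Egln3 and Pfkm. Egln3 read 9.52, 5.72 and 7.98 with both, 7.14 and 5.47 with pemetrexed and 6.19, 6.75 and 6.24 with gemcitabine, against 4.51 and 5.42 without drug. All treated arrays lay above both untreated ones, as did 22.2%, 30.3% and 20.4% of all genes in the 3 comparisons. Arrays given both drugs spanned 3.81 and those given pemetrexed 1.67, while the gemcitabine arrays spanned 0.56. In that order the Egln3 differences were 2.78 (SE 1.18, adjusted p = 0.586), 1.34 (SE 1.3, adjusted p = 0.9999) and 1.43 (SE 1.18, adjusted p = 0.792). Each SE pools the spread of all groups. Pfkm read 8.44, 8.70 and 8.61 with both drugs against 9.62 and 9.49, a difference of -0.97 (SE 0.39, adjusted p = 0.561).

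One array carried much of the combination's spread. Replicate 1 of the tumors given both drugs was the highest of its group in 25 of 31 members, or 80.6%, against 40.4% of all genes, and in 7 of 7 hypoxia targets outside glycolysis. Car9 read 9.01, 5.63 and 5.46 in that group, so that replicate 1 stood more than 3 log2 units above the others, and the difference from untreated tumors was 1.69 (SE 0.81, adjusted p = 0.636). Vegfa read 9.68, 8.23 and 8.23 and Ndrg1 9.61, 8.58 and 6.23. The median SD of the members in the group was 0.37, against 0.18 for all genes.

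The intervals show what these few arrays could not resolve. Slc2a1 differed by 0.09 (95% interval -1.37 to 1.55), 0.09 (95% interval -1.24 to 1.42) and 0.21 (95% interval -1.12 to 1.54) for pemetrexed, gemcitabine and both. Ldha, less variable, differed by 0.24 (95% interval -0.34 to 0.82), 0.24 (95% interval -0.29 to 0.77) and 0.22 (95% interval -0.30 to 0.75), and Hif1a by -0.07 (95% interval -0.61 to 0.46), -0.06 (95% interval -0.55 to 0.42) and 0.08 (95% interval -0.41 to 0.56). Both drugs against gemcitabine alone and against pemetrexed alone also gave 0 members called by limma, with 0 at an unadjusted p under 0.05, where the backgrounds were 0% at the adjusted and 5.25% and 2.5% at the unadjusted line. Microglia and macrophage list means were 7.94 to 8.07 without drug and 7.0 to 8.29 with both drugs, and neuron list means 9.22 to 9.42 and 7.32 to 8.86. Neuron means were 8.23 to 8.80 with pemetrexed and 6.98 to 9.32 with gemcitabine. Oligodendrocyte means were 8.16 to 9.54 without drug, 7.41 to 7.94 with pemetrexed, 6.74 to 9.07 with gemcitabine and 6.24 to 8.41 with both. Red blood cell means were 9.74 to 9.94 without drug, 8.20 to 8.84 with pemetrexed, 8.69 to 10.1 with gemcitabine and 10.4 to 10.7 with both. Their part in the values was not tested.

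**Figure D5:**
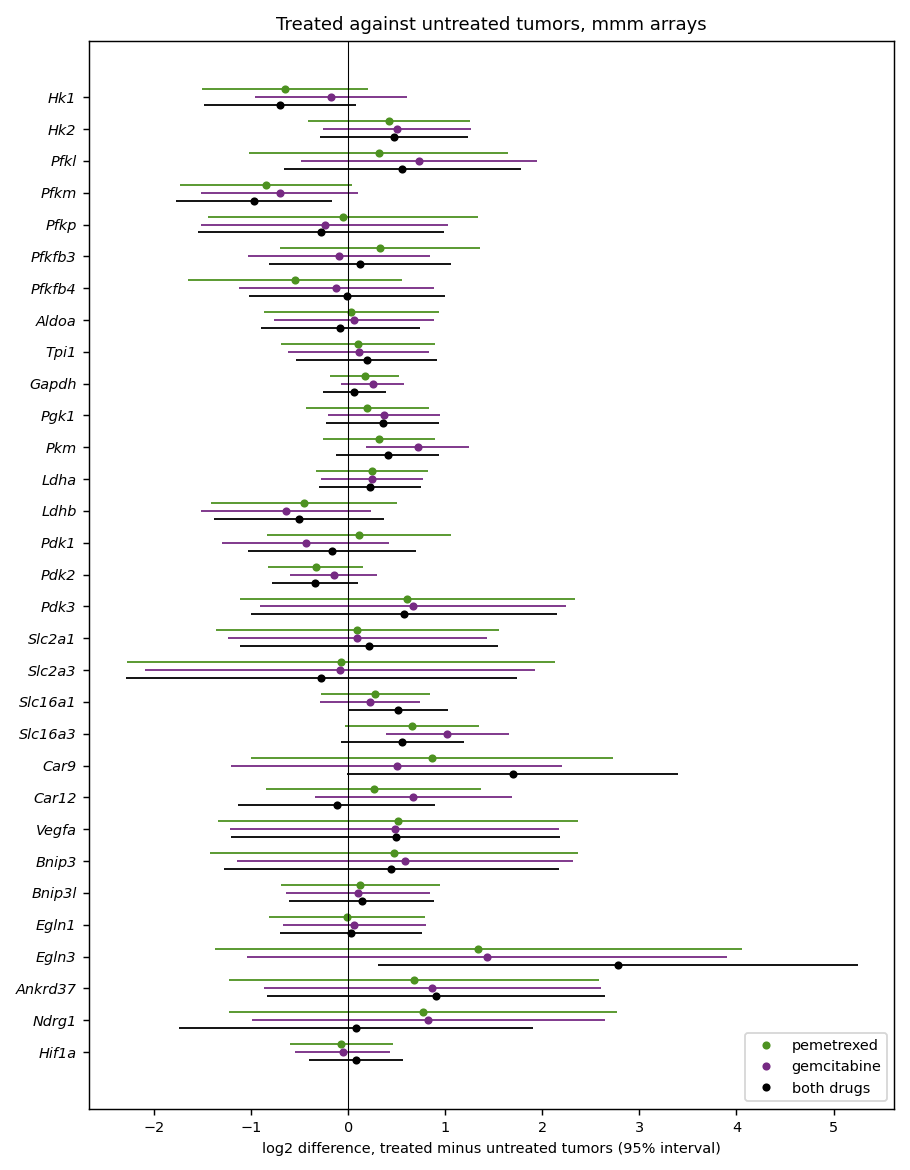
Difference in log2 intensity between treated and untreated mmm tumors for the 31 members with its 95% interval, in green for pemetrexed, purple for gemcitabine and black for both drugs. No member passed at a limma adjusted p under 0.05. Egln3 has the largest point values, 1.34, 1.43 and 2.78, and also the widest intervals, and all 3 drug groups share the 2 untreated tumors.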

How the data were processed

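The authors' deposited values are log2 intensities of 45141 probe sets on Affymetrix HT MG-430 PM arrays. RMA and Partek 6.6 are named in the submitters' processing notes, and Trizol, NuGEN Ovation Pico WTA V2 and NuGEN Encore Biotin in the labels. No further scaling was applied. Of 28898 probe sets with 1 symbol, the brightest per gene gave 17097 genes, and 551 probe sets had several symbols and 15692 no gene.

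A single limma model (3.58.1, R 4.3.3) over all 26 arrays held a mean for each of 9 combinations of group and title code, and p was adjusted by Benjamini-Hochberg over all genes at 0.05. SE and 95% intervals are moderated and pool the spread of all groups. Separate animals or cultures are not stated, so p measures only the spread between these arrays, which may be technical, and 2 to 4 arrays a group limit precision. The fit was tested on simulated data. Members, lists and rules were chosen with earlier results of these data known. Any measured member could be named, and up to 3 genes past 0.05 of each other list. Alternatives covered probe set choice, scaling, a filter on dim genes, variance model, 1 code alone and each array left out. Figures used Python 3.11.15 and matplotlib 3.10.9.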

Additional observations from a re-analysis of the deposited data

Results flagged for a closer look

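A set of 5 members differed between the codes in the comparison of tumors with Group3 neurospheres, tested as mmm minus dka. Hk2 gave -1.61, Slc16a1 -1.41, Slc16a3 -1.64, Car12 -2.27 and Ldhb 1.78, each at an adjusted p under 0.05 over all genes, where 9.17% of all genes passed. Without mmm tumor replicate 1 or 2, 0 of the 5 passed by limma. One array stood far from its group: Aldoa read 12.63 on mmm Group3 neurosphere replicate 3, against 11.75, 11.86 and 11.88 on the others. It was the only such array among the 31 members tested in that group, the 1 group of 4 arrays. Chance gives about 1 in 20 of the members tested, so 1 flag among 31 is no more than chance would give.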

How the results depend on the processing

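For the 49 member changes called in any comparison, 583 of 662 values under the alternatives kept direction and call, 79 kept direction and lost the call, and 0 reversed. The count of members called in the neurosphere comparison ranged from 9 to 15 without 1 array and from 11 to 13 under the other alternatives. Without 1 array the counts ran from 4 to 5 for dka tumors against neurospheres, from 1 to 5 for mmm tumors against neurospheres, from 11 to 13 for dka tumors against Trp53 Cdkn2c neurospheres, from 0 to 1 for secondary against untreated tumors, from 7 to 10 for secondary tumors against neurospheres, and from 0 to 5 for the difference between codes. They stayed at 0 in the drug comparisons. In mmm, leaving out tumor replicate 1 or 2 left 1 and neurosphere replicate 4 left 2. With the probe set of smallest p, 2 members (1 higher, 1 lower) were called for secondary against untreated tumors. Scaling by median and interquartile range moved the median of all genes from 0.08 to 0.18 in the neurosphere comparison. No paired analysis was possible because replicate numbers follow the order of deposit and the labels give none. Pdk2, Slc16a3, Car9 and Pfkfb4 were above the array median on 6, 8, 17 and 18 of 26 arrays, so their low values are near the floor. So are those of Car12 and Egln3 in Trp53 Cdkn2c neurospheres.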

Other observations

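In Group3 against Trp53 Cdkn2c neurospheres, 3 of 7 pentose phosphate genes were higher and 1 lower, where 22.6% of all genes passed. Pgd and Pgls, of the oxidative branch, rose by 0.71 and 0.65, and Rpia, of the ribose branch, fell by 0.70. Rpia rose in dka tumors against Group3 neurospheres, by 1.26 (SE 0.24, limma adjusted p = 0.000847), with Prps1, which makes the activated ribose of nucleotides, at 0.99. Among 9 other sugar and monocarboxylate carriers 1 was higher and 2 lower in Group3 neurospheres, a share near that of all genes. Slc2a10 rose by 1.89 there, and it fell by 1.85 in dka and by 1.37 in mmm tumors against neurospheres. The neurosphere means of the 2 codes are not separate measurements.

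Eno2, the neuronal enolase, was 6.11 higher in mmm tumors than in mmm Group3 neurospheres (SE 0.79, limma adjusted p = 2.67e-05), where 8 of 10 neuron markers were higher. In dka the same comparison gave -1.95 (SE 0.74, adjusted p = 0.0756), with 7 of 10 neuron markers higher, and the difference between the codes was 8.06 (adjusted p = 0.000576). Epas1, which encodes HIF-2alpha and is abundant in endothelium, was 4.70 higher in mmm (SE 0.76, adjusted p = 0.000221), with 10 of 14 endothelial markers higher. In dka it gave 0.09 (SE 0.71, adjusted p = 0.955), with 13 of 14 endothelial markers higher, and the difference between the codes was 4.61 (adjusted p = 0.012). The part of those cells was not tested. Aldoc, the aldolase of brain, gave -4.56 in dka tumors and -5.82 in secondary tumors, both against the same dka Group3 neurospheres, and 0.26 in mmm tumors (adjusted p = 0.909).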
